A study of Homo sapiens with 14 samples.

Results

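The genes described here encode the subunits, activators, inhibitor and assembly chaperones of the proteasome, the protease complex that degrades ubiquitin-tagged proteins. They were chosen by name: a probe set of the array had to be assigned to exactly 1 gene whose symbol is PSMA, PSMB, PSMC, PSMD, PSME, PSMF or PSMG followed by a number, and each gene was represented by its brightest probe set, by the mean over the 14 arrays. This gave 44 of the 18129 genes with a probe set of their own. PSMA6, PSMC5, PSMD7 and PSMD13 also have such names, but no probe set was assigned to them alone. Of the 44 genes, 42 were bright enough to be among the 10877 genes tested. PSMA8, an alpha subunit known from testis, and PSMB11, a beta subunit known from thymus, were not: their means in the 4 groups lay between 4.24 and 4.44 and between 4.11 and 4.33 log2 units, under the limit of 6.89. The 42 genes fell into 37 constitutive genes and 5 genes of the immunoproteasome and its activator (PSMB8, PSMB9, PSMB10, PSME1 and PSME2), which are described apart.

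All samples came from a single established line, PANC-1, derived from a human carcinoma of the pancreas. Cells grown in 10% serum were kept in 1% serum for 24 h and then treated for 48 h. The groups were control cells (4 arrays), cells given the cytokine TGFb1 at 5 ng/ml (4 arrays), TGFb1 with acriflavine at 2.5 µM (3 arrays), and TGFb1 with sodium valproate at 2 mM (3 arrays). Acriflavine is a mixture of acridine dyes, valproate inhibits histone deacetylases, and the study used both as inhibitors of the epithelial-to-mesenchymal transition that TGFb1 induces. Every acriflavine and valproate array therefore also had TGFb1, and a group with acriflavine alone was not analysed here. The submitters call the replicates biological.

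The core of the proteasome is a barrel made of alpha and beta rings, in which 3 beta subunits carry the proteolytic sites. PSMB6, PSMB5 and PSMB7 are the constitutive catalytic subunits, and interferon-inducible counterparts (PSMB9, PSMB8 and PSMB10) replace them in newly assembled immunoproteasomes, which are known for making peptides for display on MHC class I molecules. The regulatory cap, built on a ring of ATPases (PSMC genes) with further non-ATPase subunits (PSMD genes), binds, unfolds and feeds ubiquitinated substrates into the barrel. PSME1 and PSME2 form an alternative, interferon-inducible activator, PSME3 and PSME4 form nuclear activators, PSMF1 was described as an inhibitor, and the PSMG genes encode chaperones that help to assemble the barrel.

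Values are log2 intensities, differences are between group means on the log2 scale, ± the standard error (SE) of a limma fit over all 14 arrays, and levels of different genes are not compared because each comes from a different probe set. A gene rose or fell where its limma p, adjusted by the Benjamini-Hochberg method over the 10877 genes, was under 0.05. Arrays are listed in the order of their replicate numbers. The array medians lay between 7.16 and 7.21. Over all genes, 3 arrays stood farthest from the mean of their group: TGFb1 replicate 4, with a standard deviation (SD) of its deviations of 0.375, TGFb1 replicate 2 (0.256) and control replicate 4 (0.25). The remaining 11 arrays had 0.0665 to 0.16. All 5 epithelial markers examined (KRT8, KRT18, KRT19, KRT7 and EPCAM) were above the brightness limit, while PTPRC, the pan-leukocyte marker, read 3.63 to 4.05. Of the markers of leukocytes, endothelium, fibroblasts and hepatocytes, only CD68 and APOA1 were above the limit, and the fibroblast gene LUM had a mean of 6.14 with valproate against 3.40 to 3.54 in the other groups.

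The promoters of the immunoproteasome genes are shown first because all 5 passed the test both with TGFb1 against control and with acriflavine against TGFb1. Windows from 250 bases before to 50 bases after each annotated start were taken from RefSeq (GRCh38.p14) for 38 of the 44 genes and searched on both strands. An interferon-stimulated response element, spelled as GAAA, any 2 bases and GAAA, was found in the windows of 4 of the 5 immunoproteasome genes (66.7% of their 6 windows), in those of 3 of 33 constitutive genes (7.69% of 39 windows) and in 3.57% of all 35116 windows. PSMB9 was the immunoproteasome gene without a match. The stretches that hold the element are printed 5′ to 3′ on the gene's strand, with the match, or its reverse complement, in capitals.
PSMB8, chr6:32844032-32844061, minus strand: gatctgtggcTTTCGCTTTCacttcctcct
PSME1, chr14:24136189-24136218, plus strand: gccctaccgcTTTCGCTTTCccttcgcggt
PSME2, chr14:24146611-24146670, minus strand: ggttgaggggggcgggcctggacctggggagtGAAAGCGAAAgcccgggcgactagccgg
PSMB10, chr16:67936851-67936910, minus strand: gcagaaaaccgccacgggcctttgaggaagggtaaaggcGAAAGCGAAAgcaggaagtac

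All 4 matches had the same letters on one strand or the other, and began at position -4 (PSMB8), 6 (PSME1), -28 (PSME2) and -21 (PSMB10) from the annotated start. Among constitutive genes the same letters stood at position -33 of the PSMG4 window, while PSMB4 and PSMA4 held other spellings of the motif. The gamma-activated sequence, spelled TTCNNNGAA, was in the windows of 1 immunoproteasome gene (PSMB8, 16.7% of windows) and of 7 of 33 constitutive genes (17.9% of windows), and in 7.66% of all windows. Of motifs bound by factors known to regulate constitutive proteasome genes, the core of the antioxidant response element (TGACNNNGC) was in the windows of 11 of 33 constitutive genes (28.2% of windows, 13.3% of all windows) and 3 of 5 immunoproteasome genes. The NF-Y box (CCAAT) was in those of 17 of 33 constitutive genes (43.6% of windows, 34.6% of all) and 1 of 5 immunoproteasome genes (16.7% of windows). In all these motif counts the 33 constitutive genes include PSMA8 and PSMB11, which were too dim to be tested. PSMB11 is among those with an NF-Y box and PSMA8 among those with a gamma-activated sequence. These matches describe the letters only. On the chromosomes PSMB8 lies between TAP2 and TAP1, PSMB9 lies next to TAP1, and EMC9 lies between PSME1 and PSME2.

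All 5 immunoproteasome genes were lower after TGFb1 than in control cells, and all 5 were higher when acriflavine was given with TGFb1 than with TGFb1 alone. With valproate added to TGFb1, 0 of the 5 passed the limma test, and 1 was higher at an unadjusted p under 0.05. These comparisons share the TGFb1 arrays, so they are not independent of each other. In these bulk RNA samples a change in every cell cannot be told apart from a change in the number of cells that express a gene.

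PSMB8, the inducible counterpart of the chymotrypsin-like subunit PSMB5, read 10.89, 10.73, 10.79 and 11.29 in control, 10.24, 10.42, 10.17 and 10.45 with TGFb1, 11.92, 11.91 and 11.81 with acriflavine added, and 10.27, 10.07 and 10.27 with valproate added. Every control array was above every TGFb1 array, every acriflavine array was above all others, and the valproate arrays overlapped those with TGFb1 alone. Its level fell by 0.61 ± 0.115 with TGFb1 (limma adjusted p = 0.00221). It rose by 1.56 ± 0.124, or 2.95-fold, with acriflavine against TGFb1 (limma adjusted p = 5.3e-07), the largest rise among the 42 genes. PSMB9, the inducible counterpart of PSMB6, read 10.92, 10.92, 10.86 and 11.41 in control, 10.36, 10.52, 10.30 and 10.69 with TGFb1, 11.84, 11.80 and 11.72 with acriflavine, and 10.75, 10.57 and 10.75 with valproate. The groups stood in the same order, except that the valproate arrays reached slightly above those with TGFb1 alone. It fell by 0.56 ± 0.121 with TGFb1 (limma adjusted p = 0.00537) and rose by 1.32 ± 0.131, or 2.49-fold, with acriflavine (limma adjusted p = 3.73e-06).

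PSMB10, the inducible counterpart of the trypsin-like subunit PSMB7, read 10.47, 10.30, 10.37 and 10.72 in control, 10.18, 10.31, 10.06 and 10.09 with TGFb1, 10.79, 10.82 and 10.73 with acriflavine, and 9.89, 9.89 and 10.14 with valproate. Control and TGFb1 arrays overlapped, and the acriflavine arrays lay above all others by a small margin over control replicate 4. It fell by 0.31 ± 0.098 with TGFb1 (limma adjusted p = 0.0447), and this passed in only 3 of the 14 fits that left out 1 array (limma adjusted p from 0.0304 to 0.108). The rise with acriflavine was 0.62 ± 0.106 (limma adjusted p = 0.000347).

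PSME1, which with PSME2 forms the interferon-inducible activator ring, read 11.58, 11.50, 11.48 and 11.92 in control, 11.00, 11.14, 10.87 and 11.12 with TGFb1, 11.76, 11.78 and 11.62 with acriflavine, and 11.34, 11.24 and 11.41 with valproate. The TGFb1 arrays were the lowest, the valproate arrays lay between TGFb1 and control, and the acriflavine arrays overlapped control. It fell by 0.59 ± 0.101 with TGFb1 (limma adjusted p = 0.00105) and rose by 0.69 ± 0.109 with acriflavine (limma adjusted p = 0.000189). PSME2 read 11.93, 11.99, 11.99 and 12.31 in control, 11.57, 11.55, 11.51 and 11.76 with TGFb1, 12.41, 12.53 and 12.22 with acriflavine, and 11.51, 11.37 and 11.39 with valproate. Here the valproate arrays were at or under the lowest TGFb1 array, and control replicate 4 lay within the acriflavine range. It fell by 0.46 ± 0.0985 with TGFb1 (limma adjusted p = 0.00534) and rose by 0.79 ± 0.106 with acriflavine (limma adjusted p = 5.33e-05).

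**Figure D1:**
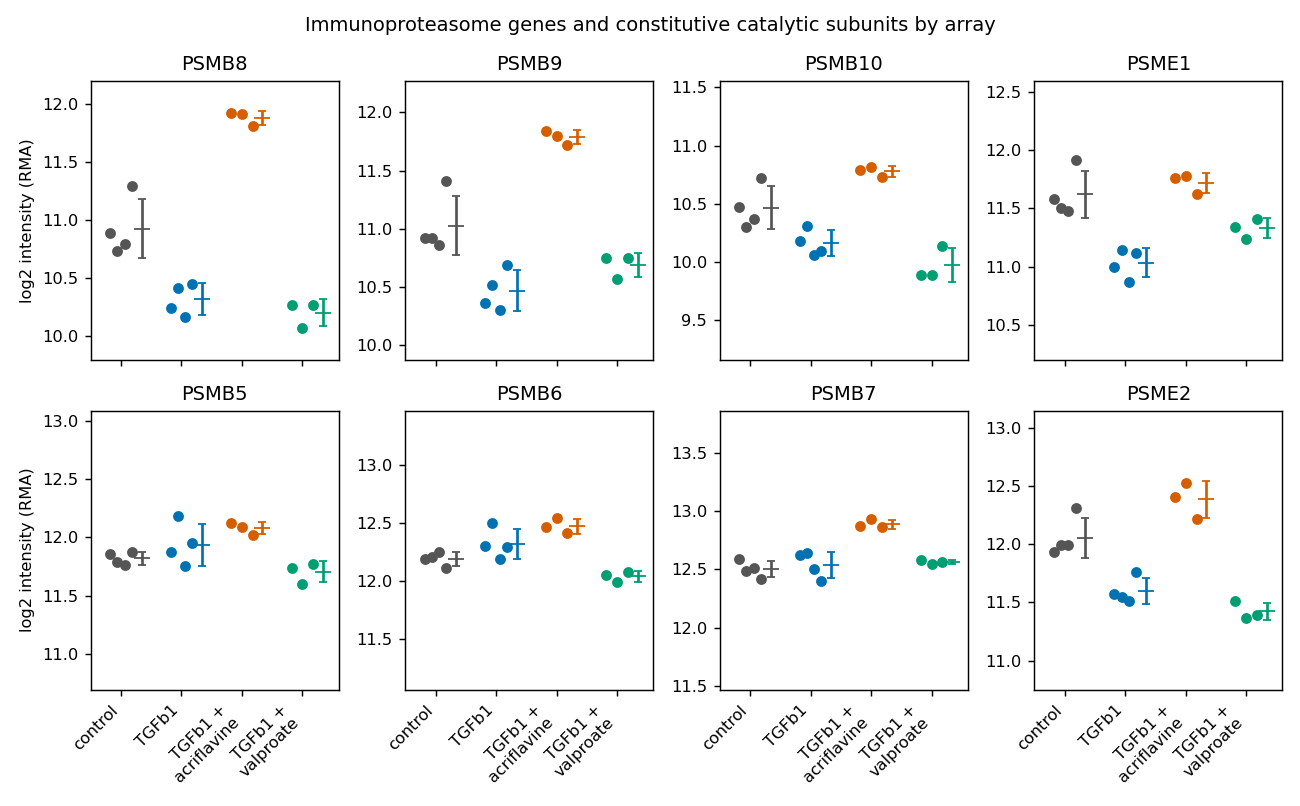
Log2 intensity on each array (points, in replicate order) with the group mean ± SD to the right of the points (n = 4, 4, 3 and 3), for the 5 immunoproteasome genes and the constitutive catalytic subunits PSMB5, PSMB6 and PSMB7. Each panel spans the same number of log2 units, and the acriflavine arrays of PSMB8 (11.81 to 11.92) stand clear of all others while those of PSMB5 (12.02 to 12.12) lie within the range of the TGFb1 arrays.

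Among all genes tested, 18.4% changed with TGFb1 against control (9.97% fell), and 43.6% changed with acriflavine against TGFb1 (24.5% rose). The median difference of the 5 genes was -0.56 and 0.79 in these comparisons, against 0.00 and 0.03 for all genes. Control replicate 4 was the highest control array for each of the 5 genes. With both replicates 4 left out, 4 of the 5 still fell with TGFb1 (all but PSMB10, difference -0.20, limma adjusted p = 0.107) and all 5 still rose with acriflavine. The mean of the 5 epithelial markers was also lower with TGFb1 and higher with acriflavine, with array means of 11.97 to 12.25 in control, 11.21 to 11.52 with TGFb1, 12.16 to 12.25 with acriflavine and 11.60 to 11.82 with valproate, and its part in the result was not tested. With valproate against TGFb1 the markers differed: KRT7 (10.25 against 8.87) and EPCAM (9.77 against 9.10) were higher. KRT8 (13.14 against 13.25) and KRT18 (13.42 against 13.49) were lower, and KRT19 read 12.13 against 12.06. The leukocyte list, whose cells carry immunoproteasomes constitutively, had array means of 5.91 to 6.11 in control, 5.59 to 5.88 with TGFb1, 5.74 to 5.80 with acriflavine and from 5.96 upward with valproate, with 1 of its 5 genes above the brightness limit.

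Against control rather than TGFb1, acriflavine with TGFb1 left 4 of the 5 genes higher, where 26.1% of all genes tested rose: PSMB8 by 0.95 ± 0.124, PSMB9 by 0.76 ± 0.131, PSMB10 by 0.31 ± 0.106 and PSME2 by 0.33 ± 0.106 (limma adjusted p from 3.78e-05 to 0.0254). PSME1 differed by 0.10 ± 0.109 (limma adjusted p = 0.465). The calls of PSMB10 and PSME2 against control passed in 10 and 9 of the 14 fits that left out 1 array, and 2 of the 5 genes passed without control replicate 2 or 3 or acriflavine replicate 1 or 2. Valproate with TGFb1 left 3 of the 5 lower than control, where 19.8% of all genes tested fell: PSMB8 fell by 0.72 ± 0.124, PSME2 fell by 0.63 ± 0.106 and PSMB10 fell by 0.49 ± 0.106 (limma adjusted p from 0.000396 to 0.00235). PSMB9 and PSME1 differed by -0.34 ± 0.131 and -0.29 ± 0.109 (limma adjusted p = 0.0582 and 0.054). Both also fell, giving 5 of 5, without control replicate 3 (-0.39 and -0.33, limma adjusted p = 0.0472 and 0.0457), without TGFb1 replicate 4 (-0.34 and -0.29, limma adjusted p = 0.0308 and 0.0385), with the arrays centred on their medians and with the replicates 4 as a batch.

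Valproate against TGFb1 alone gave differences between -0.19 (PSMB10) and 0.30 (PSME1) for the 5 genes, of which 0 passed limma's adjusted p (31.3% of all genes changed, 15.1% up and 16.2% down). PSME1 stood nearest to the threshold, at 0.30 ± 0.109 (limma adjusted p = 0.0507), with every valproate array above every TGFb1 array, and it rose without TGFb1 replicate 2 (limma adjusted p = 0.0413), TGFb1 replicate 4 (0.0312) or control replicate 4 (0.0142). With both replicates 4 left out, PSME1 (0.33, limma adjusted p = 0.00435) and PSMB9 (0.30, limma adjusted p = 0.00614) rose. The inhibitors were also compared directly: all 5 genes were higher with acriflavine than with valproate, where 28.3% of all genes tested were higher. The differences were 1.68 ± 0.133 for PSMB8, 1.10 ± 0.14 for PSMB9, 0.96 ± 0.114 for PSME2, 0.81 ± 0.113 for PSMB10 and 0.39 ± 0.117 for PSME1 (limma adjusted p from 2.99e-07 to 0.0123). The arrays of the inhibitor groups did not overlap for any of the 5. How common this was among all genes tested was not counted, and 51.5% of all genes tested changed in this comparison.

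The constitutive genes as a group moved little with TGFb1 and mostly upward with acriflavine. With TGFb1 against control, 2 of 37 rose and 0 fell in the limma test (3 and 2 at an unadjusted p under 0.05), where 8.39% of all genes tested rose and 9.97% fell, and the median difference was 0.02 (0.00 for all genes). Without TGFb1 replicate 4, 5 constitutive genes passed, among them PSMC6 (-0.30, limma adjusted p = 0.0429) and PSMD6 (-0.27, limma adjusted p = 0.0354). With acriflavine against TGFb1, 20 of 37 rose and 3 fell, against 24.5% and 19.1% of all genes, with a median of 0.27 (0.03 for all genes). With valproate against TGFb1, 2 rose and 6 fell, against 15.1% and 16.2%, with a median of -0.01 in both sets. Averaged over the 37 genes and set against the control mean, single arrays lay between -0.01 and 0.02 in control, -0.05 and 0.14 with TGFb1, 0.28 and 0.34 with acriflavine, and -0.07 and 0.06 with valproate, so that the acriflavine arrays lay apart from the rest.

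**Figure D2:**
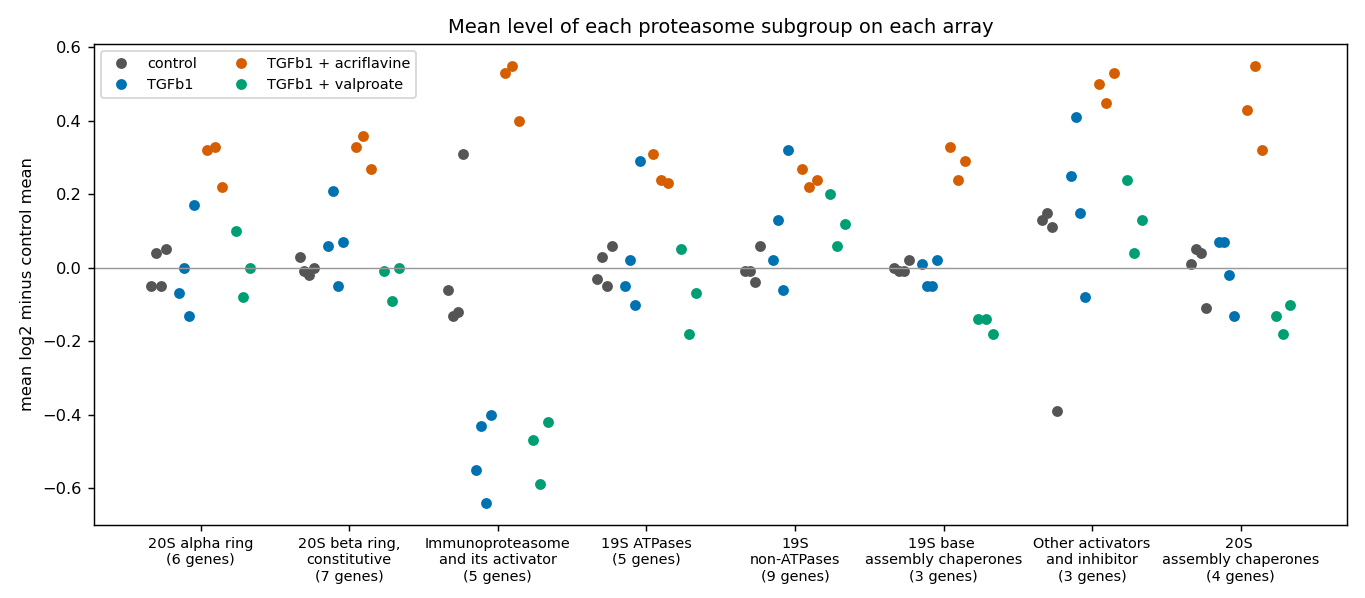
Mean log2 level of each subgroup of proteasome genes on each array, minus the mean of the control arrays (vertical axis, log2 units), with 1 point per array and the number of genes under each name. With acriflavine the 3 arrays lie above all other arrays for both barrel rings, both groups of assembly chaperones, the other activators with the inhibitor, and the immunoproteasome, but not for the cap's ATPases (TGFb1 replicate 4 at 0.29) and non-ATPases (0.32), and the TGFb1 and valproate arrays of the immunoproteasome lie at -0.64 to -0.40 and -0.59 to -0.42.

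In the alpha ring, whose subunits form the gate of the barrel, 4 of the 6 genes tested rose with acriflavine against TGFb1, where 24.5% of all genes tested rose. PSMA1 read 12.14, 12.39, 12.12 and 12.83 with TGFb1 and 12.98, 13.02 and 12.84 with acriflavine, with TGFb1 replicate 4 just under the lowest acriflavine array. It rose by 0.58 ± 0.158 (limma adjusted p = 0.00903). PSMA2 and PSMA3 each rose by 0.37 and PSMA5 by 0.30, while PSMA4 (0.23 ± 0.123) and PSMA7 (-0.06 ± 0.0689) did not pass. Among the fits that left out 1 array, PSMA4 passed only without TGFb1 replicate 4 (0.33, limma adjusted p = 0.0158). In the limma test 0 of the 6 passed with TGFb1 against control (1 was lower at an unadjusted p under 0.05), where 18.4% of all genes tested changed. With valproate against TGFb1 0 of the 6 passed as well (1 was higher and 1 lower at an unadjusted p under 0.05), with differences between -0.17 and 0.22. Of all genes tested, 31.3% changed in that comparison.

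In the constitutive beta ring, 4 of 7 genes rose with acriflavine against TGFb1, where 24.5% of all genes tested rose. They were PSMB3 by 0.44 ± 0.0864, PSMB4 by 0.42 ± 0.0706, PSMB7 by 0.35 ± 0.0754 and PSMB2 by 0.28 ± 0.0793 (limma adjusted p from 0.000306 to 0.01). Only 1 of the 3 catalytic subunits was among them. PSMB7, the trypsin-like subunit, read 12.59, 12.49, 12.51 and 12.42 in control, 12.62, 12.64, 12.50 and 12.40 with TGFb1, 12.87, 12.93 and 12.86 with acriflavine, and 12.58, 12.55 and 12.56 with valproate. All 3 acriflavine arrays were above every other array, and the other groups overlapped. PSMB5, the chymotrypsin-like subunit, read 11.86, 11.79, 11.76 and 11.87 in control, 11.87, 12.18, 11.75 and 11.95 with TGFb1, 12.12, 12.09 and 12.02 with acriflavine, and 11.74, 11.60 and 11.77 with valproate. TGFb1 replicate 2 was its highest array. The difference between acriflavine and TGFb1 was 0.14 ± 0.0945 (limma adjusted p = 0.251), and among the fits that left out 1 array it passed only without that array (0.22, limma adjusted p = 0.0334).

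PSMB6, the caspase-like subunit, read 12.19, 12.21, 12.25 and 12.11 in control, 12.30, 12.50, 12.19 and 12.29 with TGFb1, 12.46, 12.54 and 12.41 with acriflavine, and 12.05, 11.99 and 12.08 with valproate. The valproate arrays were below all others, and TGFb1 replicate 2 again lay within the acriflavine range. Acriflavine against TGFb1 gave 0.15 ± 0.0802 (limma adjusted p = 0.14). As for PSMB5, among the fits that left out 1 array this passed only without TGFb1 replicate 2 (0.21, limma adjusted p = 0.0246). With valproate against TGFb1, PSMB6 fell by 0.28 ± 0.0802 (limma adjusted p = 0.0175). Against control, PSMB5 (0.26 ± 0.0945), PSMB6 (0.28 ± 0.0802) and PSMB7 (0.38 ± 0.0754) all rose with acriflavine, though PSMB5 passed in only 8 of the 14 fits that left out 1 array. Against valproate they were higher by 0.37, 0.43 and 0.33.

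Within each array, the difference between an inducible subunit and its constitutive counterpart can be followed across groups, as a description with no test. Set to 0 in control, PSMB8 minus PSMB5 averaged -0.72 ± 0.109 with TGFb1 (SD, n = 4), 0.70 ± 0.0151 with acriflavine (SD, n = 3) and -0.61 ± 0.0277 with valproate (SD, n = 3). PSMB9 minus PSMB6 averaged -0.69 ± 0.173, 0.48 ± 0.0576 and -0.19 ± 0.0603 in the same groups. PSMB10 minus PSMB7 averaged -0.34 ± 0.0724, -0.07 ± 0.024 and -0.55 ± 0.151. Single control arrays ranged from -0.17 to 0.31, from -0.23 to 0.46 and from -0.15 to 0.33 in these differences. The acriflavine arrays were above all control arrays for the PSMB8 pair, overlapped them for the PSMB9 pair (0.42 to 0.53) and lay within them for the PSMB10 pair (-0.09 to -0.05).

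Among the ATPases of the cap, which unfold substrates, 3 of the 5 tested rose with acriflavine against TGFb1, where 24.5% of all genes tested rose. PSMC6 read 11.07, 10.97, 11.20 and 12.10 with TGFb1 and 12.03, 11.93 and 11.90 with acriflavine. TGFb1 replicate 4 was above all acriflavine arrays, and the other TGFb1 arrays were well below them. The difference was 0.62 ± 0.21 (limma adjusted p = 0.0282), and 0.87 without TGFb1 replicate 4 (limma adjusted p = 2.01e-05), but it did not pass in 6 of the 14 fits that left out 1 array. PSMC1 read 11.13, 11.43, 10.96 and 11.83 with TGFb1 and 12.00, 11.85 and 11.78 with acriflavine, with TGFb1 replicate 4 again inside the acriflavine range. It rose by 0.54 ± 0.191 (limma adjusted p = 0.0344) and passed in 9 of those 14 fits. PSMC2 rose by 0.26 ± 0.0731 (limma adjusted p = 0.0109), PSMC3 differed by -0.20 ± 0.0774 (limma adjusted p = 0.0528) and PSMC4 by -0.10 ± 0.068.

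The 9 non-ATPase subunits of the cap moved in both directions with acriflavine against TGFb1, where 24.5% of all genes tested rose and 19.1% fell. PSMD6 (0.53 ± 0.163), PSMD12 (0.35 ± 0.101), PSMD2 (0.25 ± 0.0913) and PSMD8 (0.20 ± 0.0781) rose, and PSMD14 and PSMD11 fell. PSMD14, the deubiquitinase that removes ubiquitin chains from substrates, read 12.48, 12.44, 12.52 and 12.39 in control, 12.47, 12.25, 12.44 and 12.42 with TGFb1, 12.10, 12.11 and 12.14 with acriflavine, and 12.35, 12.43 and 12.31 with valproate. Its acriflavine arrays were below all others. It fell by 0.28 ± 0.0729 against TGFb1 (limma adjusted p = 0.00707). It also fell by 0.34 ± 0.0729 against control (limma adjusted p = 0.0017), the only constitutive gene of the 37 to fall against control, where 21.6% of all genes tested fell. PSMD11, a scaffold subunit, read 12.39, 12.47, 12.38 and 12.68 with TGFb1 and 12.27, 12.21 and 12.23 with acriflavine, with no overlap. It fell by 0.24 ± 0.0824 (limma adjusted p = 0.0304) and passed in 10 of the 14 fits that left out 1 array, and without TGFb1 replicate 4 the difference was -0.17. PSMD8 passed in only 3 of those fits (limma adjusted p from 0.0113 to 0.149).

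PSMD2, a large scaffold subunit at the base of the cap, was 1 of the 2 constitutive genes that rose with TGFb1 alone. It read 12.51, 12.74, 12.63 and 12.90 in control, 13.03, 13.18, 12.97 and 13.17 with TGFb1, 13.36, 13.29 and 13.38 with acriflavine, and 13.15, 13.17 and 13.18 with valproate. Every treated array was above every control array. The rise with TGFb1 was 0.39 ± 0.0845 (limma adjusted p = 0.00529), and against control PSMD2 was also higher with acriflavine (0.65 ± 0.0913, limma adjusted p = 7.08e-05) and with valproate (0.47 ± 0.0913, limma adjusted p = 0.00113). The further rise of 0.25 with acriflavine against TGFb1 passed in 9 of the 14 fits that left out 1 array. PSMD6 on TGFb1 replicate 4 (10.78) lay within the acriflavine arrays (10.69 to 10.79) and above the other TGFb1 arrays (9.96 to 10.15), and its rise passed in 11 of those fits. PSMD3 showed the widest spread of the cap subunits with TGFb1, at 10.86, 11.60, 10.71 and 11.86, and its acriflavine difference of 0.38 ± 0.239 did not pass. Among the fits that left out 1 array, it passed only without TGFb1 replicate 4 (0.58, limma adjusted p = 0.0266).

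Of the chaperones that assemble the base of the cap, PSMD9 and PSMD5 rose with acriflavine and PSMD5 fell with valproate. PSMD5 read 10.27, 10.29, 10.31 and 10.35 in control, 10.34, 10.46, 10.28 and 10.36 with TGFb1, 10.67, 10.54 and 10.69 with acriflavine, and 9.87, 9.78 and 9.80 with valproate. The acriflavine arrays were above and the valproate arrays below all control and TGFb1 arrays. The difference from TGFb1 was 0.27 ± 0.0706 with acriflavine (limma adjusted p = 0.00636), and PSMD5 fell by 0.54 ± 0.0706 with valproate (limma adjusted p = 6.46e-05). Tested directly, acriflavine minus valproate was 0.82 ± 0.0755 (limma adjusted p = 1.18e-06). PSMD9 read 10.49, 10.46, 10.37 and 10.44 with TGFb1 and 10.99, 10.99 and 10.95 with acriflavine, a rise of 0.54 ± 0.0696 (limma adjusted p = 3.65e-05), with no overlap. PSMD10, known as gankyrin, differed by 0.10 ± 0.0893 and did not pass.

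**Figure D3:**
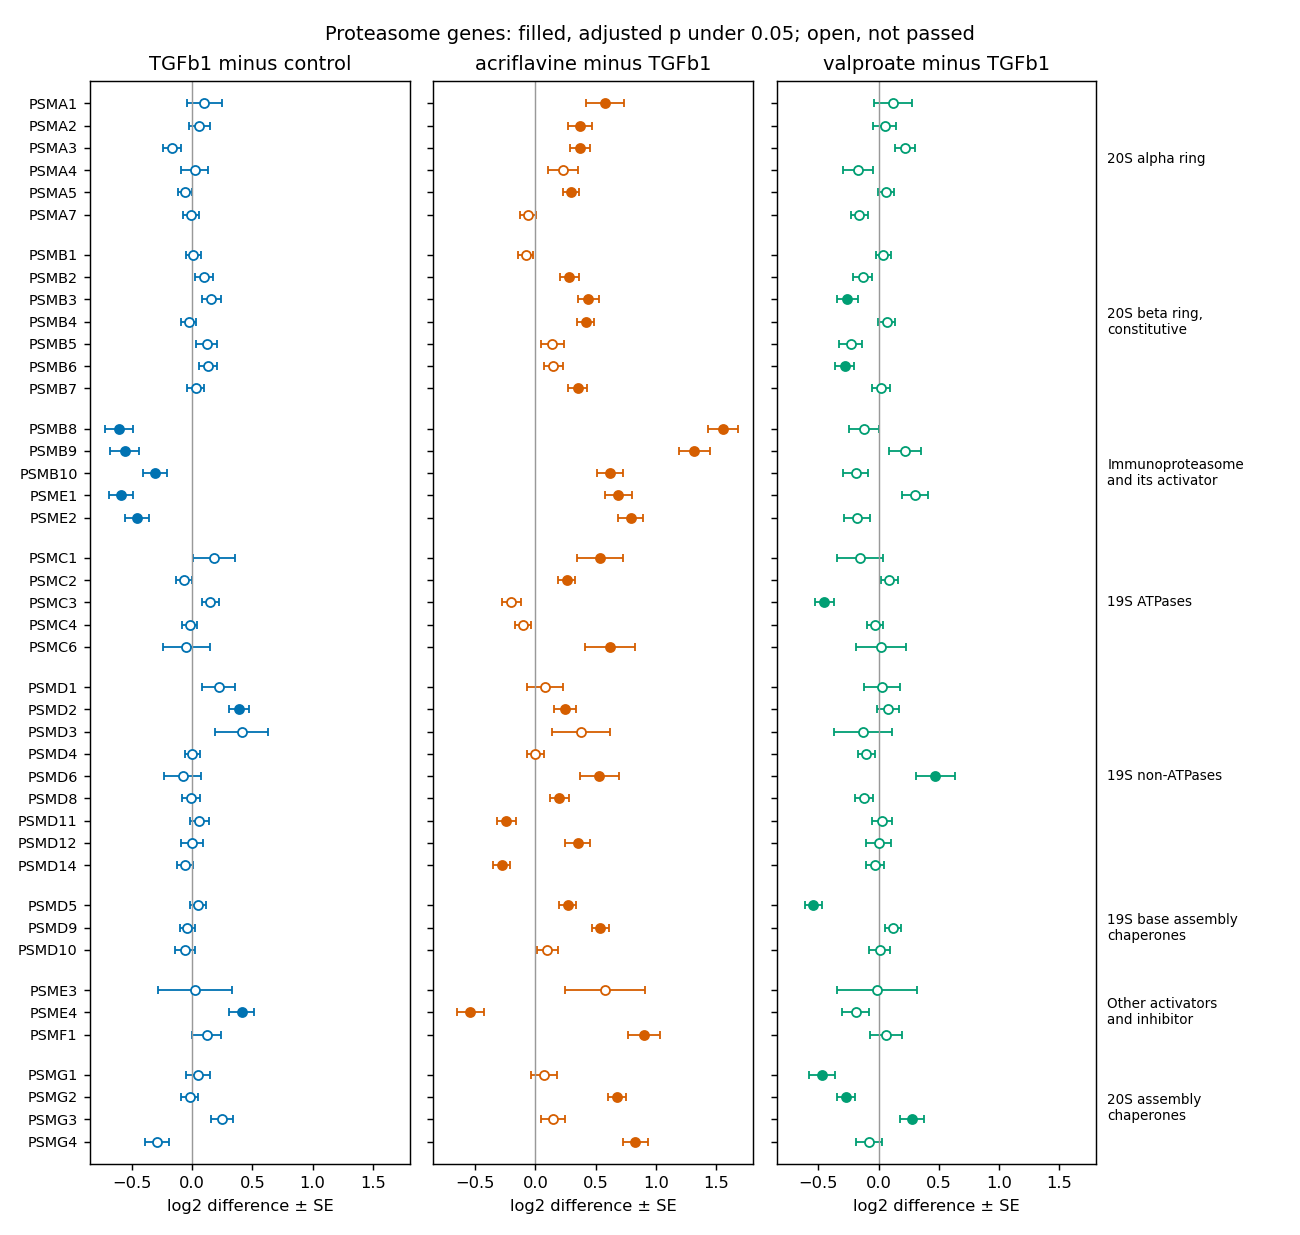
Log2 differences ± SE of the limma fit (horizontal axes) for the 42 tested genes, grouped by role, in 3 comparisons; filled points passed an adjusted p of 0.05 and open points did not. "Acriflavine" and "valproate" stand for the groups given TGFb1 with that compound. In the middle panel 25 filled points lie to the right of 0 and 3 to the left, and in the left panel the 5 immunoproteasome genes are the filled points below 0.

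The chaperones that assemble the barrel responded unequally. PSMG2, which acts with PSMG1, read 11.36, 11.45, 11.35 and 11.32 in control, 11.34, 11.43, 11.29 and 11.36 with TGFb1, 11.98, 12.13 and 11.98 with acriflavine, and 11.15, 10.96 and 11.12 with valproate. Its acriflavine arrays were above and its valproate arrays below all others. PSMG2 rose by 0.68 ± 0.0752 with acriflavine (limma adjusted p = 9.46e-06) and fell by 0.27 ± 0.0752 with valproate (limma adjusted p = 0.013). PSMG4, which acts with PSMG3, read 10.54, 10.47, 10.58 and 10.45 in control, 10.39, 10.23, 10.33 and 9.93 with TGFb1, 11.05, 11.20 and 10.90 with acriflavine, and 10.07, 10.20 and 10.14 with valproate. Every TGFb1 array was below every control array, and the acriflavine arrays were the highest.

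With acriflavine against TGFb1, PSMG4 rose by 0.83 ± 0.106 (limma adjusted p = 3.09e-05). With TGFb1 against control it differed by -0.29 ± 0.0981 (limma adjusted p = 0.0562). In the paired fit, which adds a block for each replicate number, PSMG4 fell by 0.29 (limma adjusted p = 0.0259), the only proteasome gene whose call in this comparison changed under that fit. PSMG1 read 11.43, 11.27, 11.34 and 11.13 with TGFb1, 11.38, 11.52 and 11.19 with acriflavine and 10.80, 10.85 and 10.83 with valproate, with the valproate arrays below all others. It fell by 0.47 ± 0.106 with valproate (limma adjusted p = 0.00408) and differed by 0.07 ± 0.106 with acriflavine. PSMG3 went the other way with valproate: it rose by 0.28 ± 0.0995 against TGFb1 (limma adjusted p = 0.0441, passed in 4 of the 14 fits that left out 1 array) and by 0.54 ± 0.0995 against control (limma adjusted p = 0.000824).

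PSMF1, the proteasome inhibitor PI31, read 10.34, 10.20, 10.15 and 9.88 in control, 10.23, 10.62, 10.11 and 10.11 with TGFb1, 11.14, 11.19 and 11.15 with acriflavine, and 10.44, 10.19 and 10.33 with valproate. The acriflavine arrays were above all others. The rise of 0.90 ± 0.131 against TGFb1 (limma adjusted p = 9.92e-05) was the largest among the constitutive genes. It depended on the probe set. Of its 5 probe sets above the brightness limit, fitted with all probe sets, 3 rose (by 0.92, 0.90 and 0.50) and the others gave 0.25 and 0.16 without passing. With probe sets of the _x_at and _s_at kinds left out, which can bind more than 1 transcript, the difference was 0.25 (limma adjusted p = 0.0507).

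PSME4, the nuclear activator PA200, rose with TGFb1 and fell when acriflavine was added. It read 10.80, 11.01, 10.85 and 11.06 in control, 11.30, 11.32, 11.18 and 11.57 with TGFb1, 10.85, 10.62 and 10.95 with acriflavine, and 11.30, 11.02 and 11.15 with valproate. The TGFb1 arrays were above all control and all acriflavine arrays, and the latter groups overlapped. The rise with TGFb1 was 0.41 ± 0.104 (limma adjusted p = 0.0144), and with acriflavine PSME4 fell by 0.54 ± 0.113 against TGFb1 (limma adjusted p = 0.00162), the largest fall among the 42 genes in that comparison. Fitted with all probe sets, all 6 of its probe sets fell with acriflavine, with differences from -0.71 to -0.33. PSME4 with valproate differed from TGFb1 by -0.19 ± 0.113 (limma adjusted p = 0.241).

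PSME3, the nuclear activator PA28 gamma, was set apart by the replicates 4. It read 10.39, 10.37, 10.48 and 9.02 in control, 10.37, 10.44, 10.30 and 9.21 with TGFb1, 10.66, 10.68 and 10.63 with acriflavine, and 10.12, 10.03 and 10.04 with valproate. Both replicates 4 were more than 1 log2 unit below the other arrays of their groups. Without them the 4 groups would not overlap on this probe set, except for control and TGFb1. The other probe sets of PSME3 also read lowest on the replicates 4, at 9.58 and 9.63 on one and 7.69 and 7.86 on the other. On the former, acriflavine arrays (10.30, 10.30 and 10.17) overlapped TGFb1 replicates 1 to 3 (10.29, 10.40 and 10.21), so it showed no acriflavine rise. On the latter, acriflavine arrays (9.56, 9.47 and 9.43) were above those TGFb1 replicates (9.10, 9.07 and 9.09). Over all arrays the difference from TGFb1 was 0.58 ± 0.331 with acriflavine (limma adjusted p = 0.18) and -0.01 ± 0.331 with valproate (limma adjusted p = 0.984). With both replicates 4 left out, the kept probe set of PSME3 rose by 0.29 ± 0.064 with acriflavine (limma adjusted p = 0.00172) and fell by 0.30 ± 0.064 with valproate (limma adjusted p = 0.00167). With the replicates 4 as a batch it rose by 0.26 and fell by 0.33. The acriflavine and valproate groups have no replicate 4.

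When valproate was added to TGFb1, PSMD5, PSMG1, PSMC3, PSMB6, PSMG2 and PSMB3 fell (16.2% of the constitutive genes, and 16.2% of all genes tested), and PSMD6 and PSMG3 rose (5.41%, against 15.1% of all genes). PSMC3, an ATPase of the cap, read 11.77, 11.94, 11.64 and 11.73 with TGFb1 and 11.34, 11.28 and 11.36 with valproate, with no overlap, and fell by 0.45 ± 0.0774 (limma adjusted p = 0.000606). PSMD6 read 10.92, 10.53 and 10.60 with valproate, so that TGFb1 replicate 4 (10.78) lay among these arrays. Its rise of 0.47 ± 0.163 (limma adjusted p = 0.0416) passed in only 2 of the 14 fits that left out 1 array, and was 0.66 without TGFb1 replicate 4. Without valproate replicates 1, 2 and 3 in turn, 5, 4 and 5 constitutive genes passed in place of 8. Against control, PSMG3 and PSMD2 rose with valproate (5.41% of the constitutive genes, against 16.9% of all genes tested) and PSMD5, PSMG1, PSMG4, PSMC3 and PSMG2 fell (13.5%, against 19.8% of all genes). With the replicates 4 as a batch, 6 rose and 6 fell in that comparison.

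Between the inhibitors, 21 of the 37 constitutive genes were higher with acriflavine than with valproate and 3 were lower, where 28.3% and 23.3% of all genes tested were, with a median difference of 0.33 against 0.04 for all genes. The largest differences were PSMG2 (0.95 ± 0.0804), PSMG4 (0.92 ± 0.113), PSMF1 (0.84 ± 0.14), PSMD5 (0.82 ± 0.0755) and PSMB3 (0.70 ± 0.0924), and PSME4, PSMD11 and PSMD14 were lower by -0.35, -0.27 and -0.24. Acriflavine with TGFb1 against control raised 22 of the 37 and lowered 1, where 26.1% and 21.6% of all genes rose and fell. In that comparison PSMF1 (1.02 ± 0.131), PSMD3 (0.79 ± 0.239), PSMC1 (0.72 ± 0.191), PSMA1 (0.67 ± 0.158) and PSMG2 (0.66 ± 0.0752) had the largest rises.

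Other probe sets of the same genes were compared, since 32 of the 44 genes had more than 1 and the 44 genes had 107 in all. None of the genes had probe sets called in opposite directions in any of the 6 comparisons. With acriflavine against TGFb1, 52 of 54 further probe sets above the brightness limit had the sign of the kept one, and the exceptions belonged to PSMB5 (-0.04) and PSMD10 (-0.11), which did not pass. Of the 40 that belonged to called genes, 40 had the same sign and 30 passed on their own. With TGFb1 against control the corresponding numbers were 13, 13 and 9. The median SD within groups was 0.0988 for constitutive genes, 0.142 for immunoproteasome genes and 0.159 for all genes tested.

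**Figure D4:**
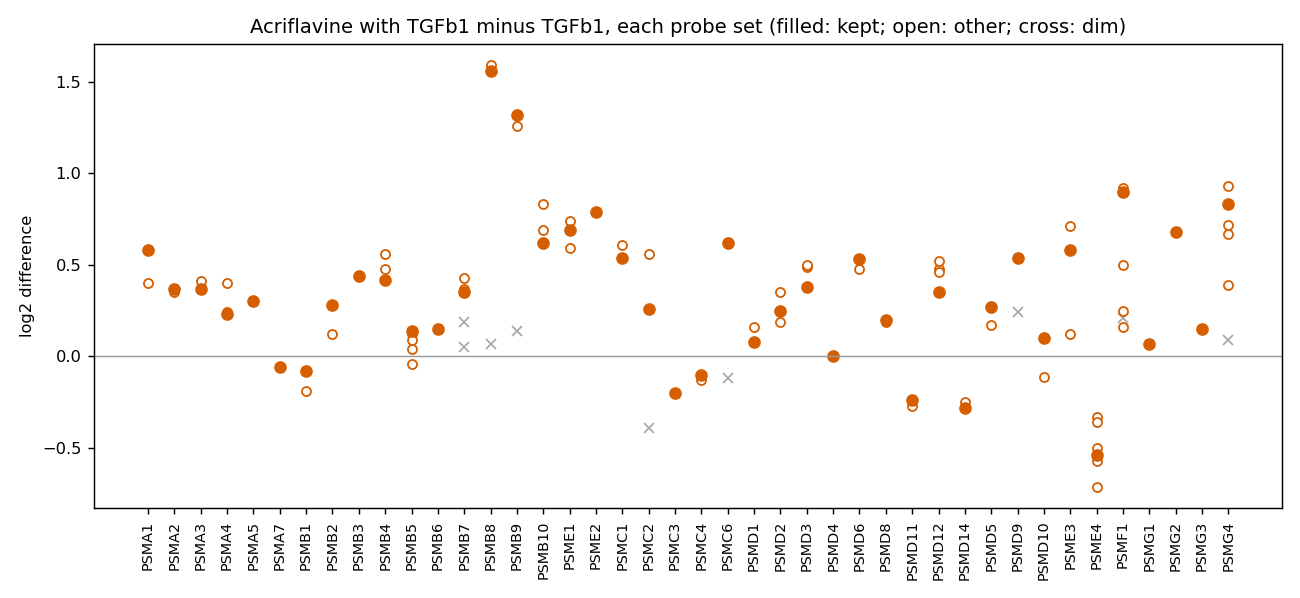
Log2 difference between acriflavine with TGFb1 and TGFb1 alone (vertical axis) for every probe set of the 42 tested genes. Filled points are the kept probe sets, open points are others above the brightness limit, and crosses are probe sets below it; the PSMF1 probe sets spread from 0.16 to 0.92 above the limit, while all 6 of PSME4 lie below 0.

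Proteins that bind the proteasome but have other names were read from a list of 15, of which 14 were tested. With acriflavine against TGFb1, 4 rose and 1 fell (24.5% and 19.1% of all genes). PAAF1, an assembly factor of the cap's ATPases, rose by 1.79 ± 0.149 (limma adjusted p = 7.86e-07), and ZFAND2A, a stress-induced proteasome-binding protein, by 1.28 ± 0.155. POMP, the maturation factor of the barrel, rose by 0.37 ± 0.0666 (limma adjusted p = 0.000509), PITHD1 rose by 0.32 ± 0.0783, and USP14, a deubiquitinase of the cap, fell by 0.47 ± 0.17. With TGFb1 against control only ZFAND5 passed (fell by 0.49), and with valproate against TGFb1 only ECPAS and FBXO7 did (fell by 0.60 and 0.25). These falls were 7.14% of the list with TGFb1 (9.97% of all genes tested) and 14.3% with valproate (16.2% of all genes).

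Among factors known to control proteasome genes, 12 of 15 listed were tested. NFE2L1, the factor that induces proteasome genes when proteasome activity drops and that is regulated largely after translation, differed by -0.16 ± 0.0787 with acriflavine against TGFb1 (limma adjusted p = 0.108). NFE2L3 rose by 0.80 ± 0.16, NGLY1, the glycanase that processes NFE2L1, by 0.46 ± 0.0751 and MAFF by 1.21 ± 0.295, while MAFG, NFE2L2 and NFYA fell by 0.73, 0.50 and 0.43. Of the list, 25.0% rose and 25.0% fell, near the 24.5% and 19.1% of all genes. With TGFb1 against control NFE2L3, NFYB and NGLY1 fell by 0.80, 0.47 and 0.30 and 0 rose in the limma test (1 was higher at an unadjusted p under 0.05), where 9.97% and 8.39% of all genes fell and rose. With valproate against TGFb1 NFE2L3 (1.10 ± 0.16) and NFE2L1 (0.23 ± 0.0787) rose, and NFYC and NFYB fell by 0.84 and 0.48, which is 16.7% of the list in each direction, against 15.1% and 16.2% of all genes.

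Genes of MHC class I antigen presentation, the pathway that the immunoproteasome serves, were read from a list of 14, of which 13 were tested. The HLA genes are close in sequence, so their probe sets may share signal. With TGFb1 against control 7 fell and 2 rose, where 9.97% and 8.39% of all genes did, with a median of -0.35. TAP1, the peptide transporter subunit next to PSMB9, fell by 0.56 ± 0.093 (limma adjusted p = 0.000827), and HLA-F, HLA-B, ERAP1, HLA-E, TAPBP and B2M also fell, by 0.99 to 0.17. CALR and PDIA3, chaperones of the endoplasmic reticulum, rose. With acriflavine against TGFb1 9 rose and 2 fell, where 24.5% and 19.1% of all genes did, with a median of 0.93: TAP1 rose by 1.01 ± 0.1, HLA-F by 1.92 ± 0.225 and NLRC5, an activator of class I genes, by 0.97 ± 0.197, and CALR and PDIA3 fell. TAP2, which lies beside PSMB8, differed by 0.06 ± 0.111. With valproate against TGFb1, 0 of the 5 immunoproteasome genes passed in the fit over all arrays, and 2 rose with both replicates 4 left out. In the fit over all arrays 6 genes of this list rose (15.1% of all genes did), among them HLA-F (2.13 ± 0.225), HLA-B (0.72 ± 0.141) and HLA-C (0.47 ± 0.0921), and TAP2 fell by 0.46.

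Of 16 listed genes of interferon signalling, 13 were tested. IRF1, which is known to induce immunoproteasome genes, fell by 0.76 ± 0.191 with TGFb1 (limma adjusted p = 0.0136) and rose by 1.10 ± 0.206 with acriflavine against TGFb1 (limma adjusted p = 0.000694). IRF9 and IRF2 also fell with TGFb1 (by 1.06 and 0.62) and rose with acriflavine (by 0.90 and 0.74). In all, 3 of the 13 fell and 0 rose with TGFb1 in the limma test (1 was higher at an unadjusted p under 0.05), where 9.97% and 8.39% of all genes did. With acriflavine 5 rose (38.5%, against 24.5% of all genes) and 3 fell (23.1%, against 19.1%), the latter being IRF7, TYK2 and JAK1. The median of the list was -0.16 with TGFb1 and -0.08 with acriflavine, where 8 of the 13 genes were lower and 5 higher. With valproate against TGFb1 4 rose (IFNAR2, IFNGR1, IFNGR2 and IRF2, 30.8% against 15.1% of all genes) and IRF7 and SOCS1 fell (15.4% against 16.2%).

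**Figure D5:**
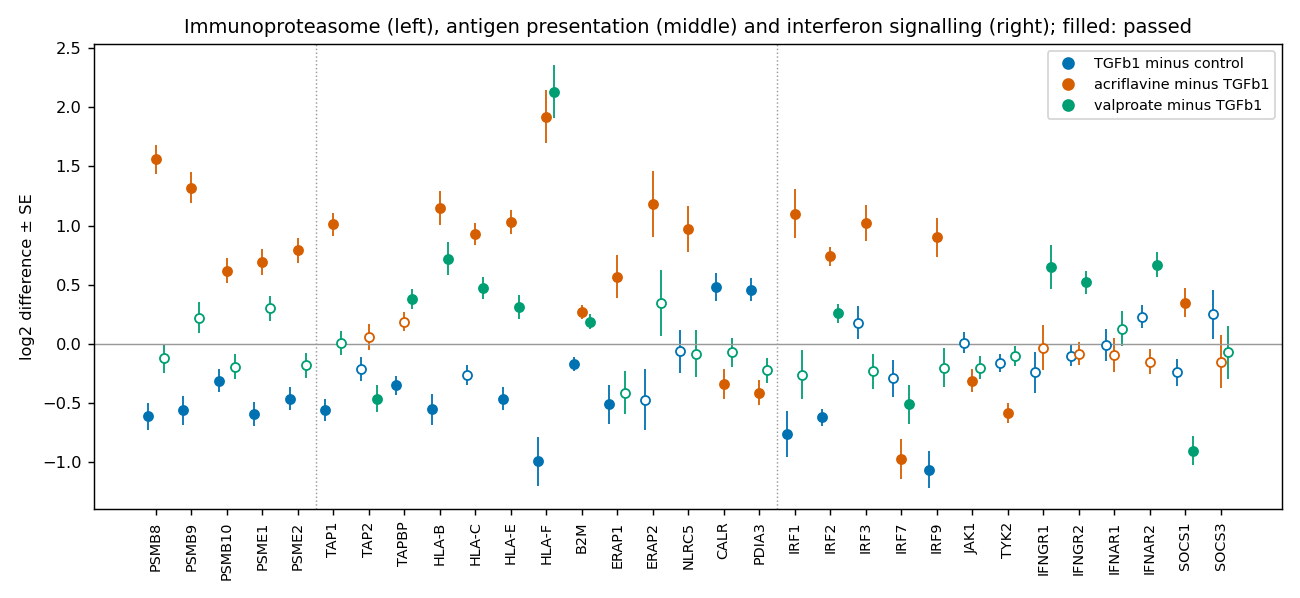
Log2 differences ± SE of the limma fit (vertical axis) for the immunoproteasome, antigen presentation and interferon signalling genes in 3 comparisons, with filled points where the adjusted p was under 0.05. The 5 immunoproteasome genes and TAP1 lie below 0 with TGFb1 and above 0 with acriflavine, while HLA-F lies near 2 with both inhibitors (1.92 and 2.13).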

How the data were processed

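Biotin-labelled cRNA from 200 ng of RNA was read on Affymetrix 3-prime arrays. The authors deposited RMA values on the log2 scale, computed with affy 1.44.0, per the submitters' processing notes. Which arrays were normalised together is not given in the sources used here. No value was renormalised. The members and lists were chosen with earlier results of these data known. Of 49193 probe sets, 44898 were assigned to 1 gene by the platform annotation, and all 44 members matched RefSeq symbols by identifier. The brightest probe set of each gene was kept, and the dimmest 40% of genes were left out.

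In R 4.3.3, limma 3.58.1 (lmFit, eBayes) estimated each group's mean from the 14 arrays together, and p-values were adjusted over 10877 genes by Benjamini-Hochberg, at 0.05. The fit was tested on simulated data. Text names all immunoproteasome genes, PSMB5, PSMB6, PSMB7, PSME3, PSME4 and PSMF1, the 5 largest rises and falls per comparison, and up to 4 passed genes per related list and direction; further members and genes were added after their values were seen. This fit did not pair arrays, so the results for TGFb1 against control are unpaired unless the paired fit is named. The paired fit, with a replicate block, was an alternative and was read as pairing for TGFb1 against control only. There the deviations of same-numbered arrays from their group means correlated at 0.387, 0.359, 0.543 and 0.705. In the other comparisons these correlations ran from -0.489 to 0.467. The highest, for acriflavine against TGFb1 at replicate 2, was above 0.387 and 0.359, so they do not settle which arrays were paired. Alternatives were other brightness limits, probe-set rules, scalings and variance models, 2 groups alone, a replicate block, the replicates 4 as a batch or left out, stricter calls, and each array left out. The number of arrays limits the precision. Planned protein comparisons were not run. Python 3.11.15 with matplotlib 3.10.9 drew the figures.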

Additional observations from a re-analysis of the deposited data

Results flagged for a closer look

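In groups of 4 arrays, 1 array lay far from the other 3, with a gap to the nearest array that exceeded Dixon's critical share of the group's range, for 5 of 84 gene and group combinations (5.95%). Chance flags about 1 in 20 groups. PSMB9 on control replicate 4 read 11.41 against 10.92 for the nearest array, and PSME2 on the same array read 12.31 against 11.99. PSME3 read 9.02 on control replicate 4 (nearest 10.37) and 9.21 on TGFb1 replicate 4 (nearest 10.30). PSMC3 on control replicate 1 read 11.70 against 11.60, a small gap in a tight group.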

How the results depend on the processing

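No called difference of a proteasome gene changed sign under any of the 28 alternatives. Some called genes passed in every alternative that kept the threshold and tested them. These were 5 of 7 (TGFb1 against control), 17 of 28 (acriflavine against TGFb1) and 3 of 8 (valproate against TGFb1). PSME2, counted for TGFb1 against control and for acriflavine against TGFb1, had only an _s_at probe set. It was tested in 27 of the 28 alternatives, and not in the fit without _x_at and _s_at probe sets. The count of constitutive genes called with TGFb1 against control was 2, and 1 with only these groups fitted, 4 with the replicates 4 as a batch, 4 with both left out, 1 at an adjusted p of 0.01, 0 with a change of at least 0.5, and 2 to 5 leaving out 1 array (5 without TGFb1 replicate 4). For acriflavine against TGFb1 it was 23, and 14 with only these groups, 14 at 0.01, 9 with a change of at least 0.5 and 17 to 24 leaving out 1 array. For valproate against TGFb1 it was 8, and 3, 3 and 1 under the same settings and 4 to 8 leaving out 1 array. For acriflavine against valproate it was 24, and 13 at 0.01, 8 with a change of at least 0.5 and 17 to 25 leaving out 1 array. For acriflavine against control it was 23, and 9 with a change of at least 0.5 and 18 to 28 leaving out 1 array. For valproate against control it was 7, and 12 with the replicate block, 12 with the replicates 4 as a batch, 13 with both left out, 1 with a change of at least 0.5 and 6 to 9 leaving out 1 array. PSME3 with valproate against control was 0.00 and turned to -0.32 with the replicate block, -0.32 with the batch and -0.35 with both replicates 4 left out. With valproate against TGFb1, 2 of the 5 immunoproteasome genes, in place of 0, rose under each of these 3 settings. With repeated quantile normalisation, the dimmest 60% of genes left out, the mean of probe sets or a robust variance trend, 1 rose. For the comparisons with acriflavine or valproate, the block was not read as pairing, and the sample titles do not say whether same-numbered arrays belong together. The block changed 22 calls of proteasome genes over these 5 comparisons, that of PSME3 in each of the 5. The cause was not tested.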

Other observations

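Ubiquitin shuttles and VCP partners, which bring substrates to the proteasome, were read from a list of 17 genes, 13 of them tested. With acriflavine against TGFb1 1 rose (NSFL1C, 0.54 ± 0.0892) and 3 fell (24.5% and 19.1% of all genes tested): the shuttle UBQLN2 fell by 0.84 ± 0.0948, the VCP cofactor UFD1 fell by 0.59 ± 0.0814 and the shuttle UBQLN1 fell by 0.49 ± 0.0832 (limma adjusted p from 1.14e-05 to 0.000347). The median of the list was -0.11, against 0.27 for the constitutive proteasome genes. With valproate against TGFb1 VCP, the ATPase that extracts ubiquitinated proteins, fell by 0.34 ± 0.0897 and FAF1 fell by 0.30 ± 0.0757. These were 15.4% of the list, against 16.2% of all genes tested.

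A probe set assigned to both PSMA6 and PRORP averaged 13.00 ± 0.101 in control (SD, n = 4), 12.64 ± 0.0338 with TGFb1 (SD, n = 4), 12.99 ± 0.0221 with acriflavine (SD, n = 3) and 12.81 ± 0.0449 with valproate (SD, n = 3). Its signal cannot be divided between these genes.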
